A study of Mus musculus with 6 samples.

Results

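Fasn, Scd1, Scd2, Lpl, Fabp4, Fabp5, Abca1, Abcg1, Apoe and Plin2 were followed in RAW 264.7 cells, an established mouse cell line that resembles macrophages. These 10 genes make, take up, bind, store or export fatty acids and cholesterol. Cells kept for 16 hours with lipopolysaccharide (LPS, 100 ng/ml) and LPS-binding protein (100 pM) were compared with untreated cells kept for the same time. Probes were taken where the platform annotation named exactly 1 gene symbol and that symbol was one of the 10. This gave 14 of 16281 probes, for 10 of the 10698 genes so named. Each of 6 arrays of 2 colours carried total RNA from both, with treated RNA in Cy5 on 3 arrays and in Cy3 on 3, each orientation holding sets 1, 2 and 3. The study thus rests on a single cell line. No label says that the sets were separate cultures, so the p-values cover the spread among these arrays only, and that spread may be technical.

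Fasn builds long-chain fatty acids and the desaturases Scd1 and Scd2 put a double bond into them. Lpl frees fatty acids from lipoprotein triglyceride, Fabp4 and Fabp5 carry them inside the cell, and Plin2 coats the lipid droplets in which they are stored. Abca1 and Abcg1 pump cholesterol and phospholipid out of the macrophage, and Apoe takes up lipid outside it. The nuclear receptor LXR, which senses oxysterols, drives Abca1, Abcg1, Apoe and, partly through Srebf1, Fasn and Scd1. PPAR gamma, a receptor for fatty acids, drives Fabp4, Lpl and Plin2.

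Each value is the log2 ratio of treated over untreated RNA on one array, so a value of 1 means a doubling and levels of different genes cannot be set against each other. An exact 0 was read as no ratio given. The values were read as Cy5 over Cy3, a likely direction because the labels name the Cy5 RNA the test; the table itself states none. As deposited, arrays of opposite orientation correlated at -0.852 to -0.622 across probes, which are not independent replicates. With this reading 3 of 3 genes known to be induced by LPS came out higher, Il6 at log2 5.11, Il1b at 4.63 and Ptgs2 at 4.26. The arrays measured pooled RNA of a culture, so fewer cells with a transcript and less of it per cell cannot be told apart. The number of arrays limits the precision.

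Among the 10 genes, changes in treated cells ran in both directions. Fabp4 (by 1 probe), Lpl, Plin2 and Fabp5 (by 1 probe) rose, while Fasn, Scd1 and Apoe fell. Abcg1 did not pass the test, Abca1 had a ratio on 5 of 6 arrays and was left out of the test, and Scd2 had no ratio on any array. Of the 14 probes, 10 had a ratio on all 6 arrays and were tested; 4 rose, 3 fell and 3 did not pass (limma, adjusted p under 0.05 over 13418 probes). Over all those probes 30.8% were called, 16.9% as higher and 13.9% as lower. The 10 genes were chosen with earlier results of these data known, so nothing is read from the difference between the shares.

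**Figure D1:**
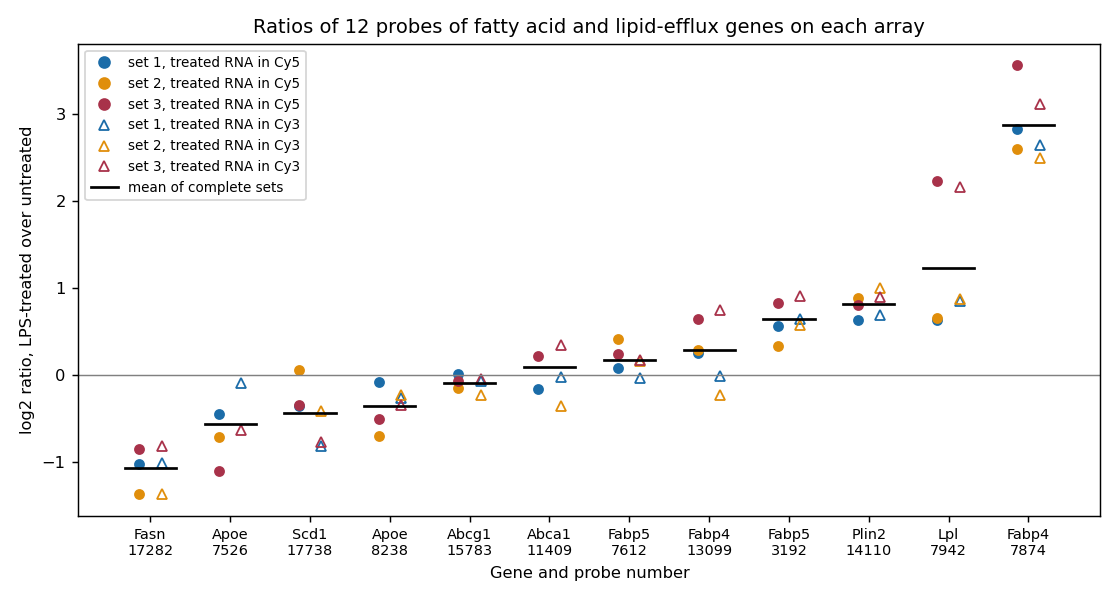
Log2 ratio of treated over untreated RNA (y axis) for each of the 12 probes with any ratio (x axis), one point per array, with treated RNA in Cy5 as circles, in Cy3 as open triangles, sets by colour and the mean of the complete sets as a bar. Fabp4 probe 7874 stands highest at 2.50 to 3.56, Lpl splits into set 3 above 2.1 and sets 1 and 2 below 0.9, and Fasn lies below -0.8 on all 6 arrays.

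Fasn, the fatty acid synthase, fell most among the 10 genes. Its ratios were -1.03, -1.37 and -0.86 in sets 1, 2 and 3 with treated RNA in Cy5, and -1.02, -1.37 and -0.82 with treated RNA in Cy3. All 6 arrays lay below 0, and the 2 arrays of a set lay closer together than the sets did. The mean was -1.08 ± 0.27 (SD over sets, n = 3), which is 2.11-fold lower (95% interval -1.34 to -0.82, adjusted p = 0.000482). By size this fall exceeded 96.0% of the absolute changes over all tested probes.

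The stretch of DNA just before the Fasn start is shown with that of Abca1, because they share a run of 18 bases. Whether the ratios of Fasn and Abca1 differ was not tested. RefSeq windows (build GRCm38.p6, 250 bases before the annotated start, minus strand in both) were found for 4 of the 10 genes, Abca1, Apoe, Fasn and Plin2. Fasn lies at chr11:120824548-120824797 and Abca1 at chr4:53159896-53160145. Capitals mark the shared run, the longest among the 6 pairs of these genes when both strands were searched.

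Fasn: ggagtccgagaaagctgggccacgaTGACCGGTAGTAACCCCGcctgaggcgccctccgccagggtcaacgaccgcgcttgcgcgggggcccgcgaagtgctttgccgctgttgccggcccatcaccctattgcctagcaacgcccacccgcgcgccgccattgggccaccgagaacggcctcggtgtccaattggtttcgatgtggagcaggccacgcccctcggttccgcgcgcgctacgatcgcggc
Abca1: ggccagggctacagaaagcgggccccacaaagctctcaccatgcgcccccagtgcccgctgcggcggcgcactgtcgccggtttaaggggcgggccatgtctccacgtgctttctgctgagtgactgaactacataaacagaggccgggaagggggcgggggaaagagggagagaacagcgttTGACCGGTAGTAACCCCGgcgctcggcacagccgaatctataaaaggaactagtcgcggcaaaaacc

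The run begins 225 bases before the start in Fasn and 67 bases before it in Abca1. Among 32851 such windows of all genes, 2 hold it (0.00609%), those of Fasn and Abca1. The run was picked from these 2 windows, so their place in the count was fixed by the choice. Nothing is read from the share. As background, it covers the direct repeat known as the LXR response element of Abca1. A match of letters is a description and shows no binding.

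Abca1, the pump that loads lipid onto apolipoprotein A1, is the other gene with that run. Its probe 11409 gave -0.17 and 0.21 in sets 1 and 3 with treated RNA in Cy5, where set 2 had no ratio, and -0.03, -0.37 and 0.34 in sets 1, 2 and 3 with treated RNA in Cy3. It was below 0 on 3 arrays and above 0 on 2. Over the 2 complete sets the mean was 0.09 (95% interval -0.21 to 0.39, adjusted p = 0.674 in a fit that accepts 2 complete sets). A change of the size seen for Fasn lies outside that interval, which leaves out set 2, where the lowest ratio (-0.37) stood.

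Scd1, the stearoyl-CoA desaturase, also fell, but less evenly. With treated RNA in Cy5 its ratios were -0.37, 0.05 and -0.35 in sets 1, 2 and 3, and with treated RNA in Cy3 they were -0.82, -0.42 and -0.77. Its mean was -0.45 ± 0.23 (n = 3), 1.36-fold lower (95% interval -0.69 to -0.21, adjusted p = 0.0145), with 5 of 6 arrays below 0. The arrays with treated RNA in Cy5 averaged -0.22 and those with treated RNA in Cy3 -0.67, a difference of 0.45 (95% interval 0.06 to 0.84, adjusted p = 0.255). The call ended without set 1 (-0.37, adjusted p = 0.0829), on the Cy5 orientation alone (adjusted p = 0.262) and when exact zeros entered as ratios (adjusted p = 0.123).

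Scd2, the second desaturase, had 1 probe, which held an exact 0 on all 6 arrays. It gives no value for Scd2 in either direction.

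Lpl, the lipoprotein lipase, rose, and its size depended on the set. With treated RNA in Cy5 the ratios of its probe were 0.63, 0.66 and 2.23 in sets 1, 2 and 3, and with treated RNA in Cy3 they were 0.85, 0.86 and 2.16. All 6 arrays were above 0, and both arrays of set 3 stood apart from the other 4. The mean was 1.23 ± 0.83 (n = 3), 2.35-fold higher (95% interval 0.59 to 1.87, adjusted p = 0.0129). Without set 3 it was 0.75 (adjusted p = 0.000157). That fit rests on set values of 0.74 and 0.76 only, so its p is not taken at face value. The call ended with robust variance moderation (adjusted p = 0.151) and with exact zeros kept (adjusted p = 0.184).

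The spread of Lpl over the sets was wider than that of 99.3% of all tested probes. A moderated F-test weighed the sets against the spread of the 2 arrays within a set. The labels do not say that a set number joins arrays of the same RNA extracts. The test called Lpl (F = 65.4, adjusted p = 0.0314), among 0.879% of probes called in that test. The wide spread of Lpl was known from earlier results of these data, so this p is no independent evidence of it. With an orientation term added the adjusted p was 0.0503. Of the 10 tested probes, 1 was called and 4 had an unadjusted p under 0.05, those of Lpl, Fasn and both of Fabp4. These counts are from the F-test without the orientation term. With that term F was larger for each tested probe. For Scd1 it went from 1.53 (adjusted p = 0.805) to 17.1 (adjusted p = 0.161), so a missed call does not show equal sets.

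Fabp4, a fatty acid carrier of adipocytes and macrophages, had 3 probes, of which 2 gave ratios, and these differed. Probe 7874 stood at 2.82, 2.59 and 3.56 in sets 1, 2 and 3 with treated RNA in Cy5, and at 2.64, 2.50 and 3.11 with treated RNA in Cy3. It was high on all 6 arrays, with a mean of 2.87 ± 0.41 (n = 3), a 7.30-fold rise (95% interval 2.52 to 3.22, adjusted p = 2.18e-05). This placed it 77th among all tested probes from the highest ratio down.

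Fabp4 probe 13099 gave 0.25, 0.29 and 0.64 in sets 1, 2 and 3 with treated RNA in Cy5, and -0.02, -0.23 and 0.75 with treated RNA in Cy3. Its mean of 0.28 ± 0.36 did not pass (95% interval -0.04 to 0.59, adjusted p = 0.173), and 2 of its 6 arrays were below 0. The third probe, 13851, held an exact 0 on all 6 arrays, although the annotation ties it to the same GenBank record as probe 7874. Probe 7874 exceeded probe 13099 by 2.59 (95% interval 2.42 to 2.76, adjusted p = 0.000416). Differences were called in 15.8% of 2258 pairs of probes that name one gene, and the median absolute difference over those pairs was 0.11. In both tested probes of Fabp4 set 3 was highest and set 2 lowest, so their difference was nearly the same in the 3 sets. Which probe follows the Fabp4 transcript was not tested.

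Fabp5, the epidermal fatty acid carrier that macrophages also make, is the near neighbour of Fabp4 on chromosome 3. Its probe 3192 stood at 0.56, 0.33 and 0.82 in sets 1, 2 and 3 with treated RNA in Cy5, and at 0.64, 0.57 and 0.91 with treated RNA in Cy3. All 6 were above 0, and the mean was 0.64 ± 0.21 (n = 3), 1.56-fold higher (95% interval 0.41 to 0.87, adjusted p = 0.00268). With exact zeros kept this call ended (adjusted p = 0.0659).

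Fabp5 probe 7612, tied to the same GenBank record, ranged from -0.03 to 0.42 over the 6 arrays, with 5 above 0. Its mean of 0.17 ± 0.14 did not pass (95% interval -0.03 to 0.37, adjusted p = 0.183). Probe 3192 exceeded it by 0.47 (95% interval 0.16 to 0.78, adjusted p = 0.064). It was 0.41 without set 1 (adjusted p = 0.267), 0.62 without set 2 (adjusted p = 5.94e-05) and 0.37 without set 3 (adjusted p = 0.177). The fit without set 2 gave Fabp4 an adjusted p of 1.02e-71 from 2 values, so its p-values are not taken at face value. Averaged over both probes, Fabp5 was at 0.40 ± 0.12 (adjusted p = 0.00757). Fabp9, the carrier gene between Fabp5 and Fabp4 that is on the array, was at 0.18 (adjusted p = 0.121), named after its value was seen.

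Plin2, the lipid droplet coat protein also called adipophilin, rose in every set. Its ratios were 0.63, 0.89 and 0.80 in sets 1, 2 and 3 with treated RNA in Cy5, and 0.68, 1.00 and 0.89 with treated RNA in Cy3. All 6 arrays were above 0, and set 1 was lowest in both orientations. The mean was 0.81 ± 0.15 (n = 3), 1.76-fold higher (95% interval 0.61 to 1.01, adjusted p = 0.000503).

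Abcg1, which hands cholesterol to high-density lipoprotein, stayed close to 0. It had 0.01, -0.16 and -0.07 in sets 1, 2 and 3 with treated RNA in Cy5, and -0.07, -0.23 and -0.05 with treated RNA in Cy3. The mean of -0.10 ± 0.09 (n = 3) did not pass the test (95% interval -0.28 to 0.08, adjusted p = 0.416). The interval leaves out changes of the size measured for Plin2 or Fasn, but it does not show that Abcg1 was unaltered.

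Apoe, the apolipoprotein that macrophages secrete, fell by its tested probe. Probe 8238 gave -0.09, -0.71 and -0.51 in sets 1, 2 and 3 with treated RNA in Cy5, and -0.26, -0.23 and -0.35 with treated RNA in Cy3. All 6 were below 0, and the mean was -0.36 ± 0.16 (n = 3), 1.28-fold lower (95% interval -0.56 to -0.15, adjusted p = 0.0192). This call ended without set 2 (-0.30, adjusted p = 0.095), on the Cy5 arrays alone (adjusted p = 0.0712), on the Cy3 arrays alone (adjusted p = 0.052) and with exact zeros kept (adjusted p = 0.102).

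Apoe probe 7526, tied to another GenBank record, lacked a ratio in set 2 with treated RNA in Cy3. It stood at -0.45, -0.71 and -1.11 in sets 1, 2 and 3 with treated RNA in Cy5, and at -0.09 and -0.63 in sets 1 and 3 with treated RNA in Cy3. All 5 arrays lay below 0. Over the 2 complete sets the mean was -0.57 (95% interval -0.95 to -0.19, adjusted p = 0.0395 in the fit that accepts 2 complete sets). For this probe the fit rests on set values of -0.27 and -0.87 only, so its p is not taken at face value. On the chromosome Apoe adjoins Apoc1, Apoc4 and Apoc2, genes of other apolipoproteins, which stood at -0.02, 0.07 and -0.16 and did not pass (adjusted p = 0.906, 0.567 and 0.158). Tomm40, a mitochondrial import gene that adjoins Apoe on the other side, stood at -0.38 (adjusted p = 0.0196), and was named with the other neighbours after their values were seen.

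The 2 dye orientations were compared for the 10 tested probes. A limma test of the orientation called 0 of them, with 1 at an unadjusted p under 0.05, that of Scd1, whose interval given above leaves out 0. The fit held no set term, so differences among sets counted as error. Scd1 stood higher in the Cy5 orientation in each set. Its ratios there were -0.37, 0.05 and -0.35, against -0.82, -0.42 and -0.77 in the Cy3 orientation. In the same test 0.335% of all probes were called. A p that misses the threshold does not show that the orientations gave the same ratio. The widest interval was that of Lpl, whose difference of -0.12 (Cy5 minus Cy3 orientation) had bounds of -1.26 and 1.02, because its sets differ.

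**Figure D2:**
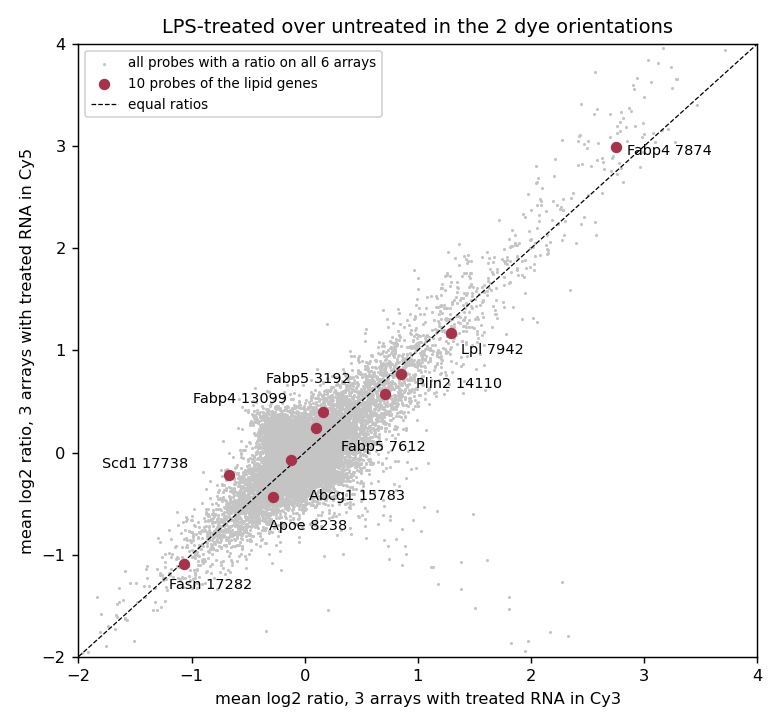
Mean log2 ratio over the 3 arrays with treated RNA in Cy5 (y axis) against the mean over the 3 with treated RNA in Cy3 (x axis), for all probes with a ratio on all 6 arrays (grey; 53 lie outside the axes) and the 10 tested probes of the lipid genes (red). Most red points lie near the dashed line of equal ratios; Scd1 is farthest from it, at -0.22 and -0.67.

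At the gene level, where the probes of a gene were averaged, 8 of the 10 genes were tested, of which 4 rose and 3 fell. Over all 9607 genes 31.4% were called, 16.8% higher and 14.6% lower. Ordered from the highest ratio down, the genes were Fabp4 (1.57), Lpl (1.23), Plin2 (0.81), Fabp5 (0.40), Abcg1 (-0.10), Apoe (-0.36), Scd1 (-0.45) and Fasn (-1.08). The place of Fabp4 rests on the mean of disagreeing probes, at 2.87 and 0.28, and its interval (1.24 to 1.90) holds neither. By probe 13099 alone (0.28) it would stand below Fabp5. The 95% intervals of neighbours in this order overlapped except between Plin2 (0.62 to 1.01) and Fabp5 (0.22 to 0.59), between Fabp5 and Abcg1 (-0.27 to 0.08), and between Scd1 (-0.68 to -0.21) and Fasn (-1.34 to -0.82). The median of the 8 was 0.15, against -0.01 over all genes tested.

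Among other genes of fatty acid synthesis and desaturation more fell than rose. Of 12 measured besides Fasn and Scd1, 5 fell, 1 rose and 6 did not pass, with a median of -0.14. The share called was 50%, against 31.4% of all genes, in a list chosen the same way as the 10 genes. Me1, the malic enzyme that supplies NADPH for synthesis, fell 1.48-fold (-0.57 ± 0.12, adjusted p = 0.00186). Among the others that fell were the desaturase Fads2 (-0.40 ± 0.16, adjusted p = 0.0119) and Srebf1 (-0.30 ± 0.05, adjusted p = 0.0165), the transcription factor of this pathway; both were named after their values were seen. Acss2, which makes acetyl-CoA from acetate, rose (0.55 ± 0.29, adjusted p = 0.0111). Of the whole list of 14, Fasn and Scd1 included, 7 fell and 1 rose. In this list 3 fell and 0 rose without set 1, 4 fell without set 2, and 2 rose without set 3. Over all probes 1866 were called lower, against 1330 without set 1 and 1313 without set 2. Higher calls over all probes went from 2263 to 1710 without set 1 and to 2117 without set 3. No test compared the list with these counts.

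In the list of uptake, binding and triglyceride turnover, 7 of the other 20 measured genes rose and 4 fell, with a median of 0.04. The share called was 55%, against 31.4% of all genes (16.8% higher and 14.6% lower), in a list chosen with earlier results known. Dgat2, which makes triglyceride, rose 2.79-fold (1.48 ± 0.40, adjusted p = 0.000427). Acsl4, which activates fatty acids, rose 2.22-fold (1.15 ± 0.10, adjusted p = 7.39e-05) and the fatty acid receptor Cd36 rose 2.06-fold (1.04 ± 0.25, adjusted p = 0.000488). Pparg, which encodes PPAR gamma, rose 1.41-fold (0.49 ± 0.04, adjusted p = 0.0021); Acsl4, Cd36 and Pparg were named after their values were seen. Lpin1, a phosphatidate phosphatase, fell 1.76-fold (-0.81 ± 0.10, adjusted p = 0.000345). Angptl4, an inhibitor of Lpl, fell 1.71-fold (-0.77 ± 0.11, adjusted p = 0.000473). Without set 1, 2 members of this list fell in place of 4, and over all probes 1330 fell in place of 1866.

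Among LXR targets and other genes of cholesterol handling, 3 of the 13 measured besides Abcg1 and Apoe rose and 1 fell, with a median of -0.06. The share called, 30.8%, was close to the 31.4% of all genes, so the count is no result about the list. Npc2, which moves cholesterol out of lysosomes, rose 2.66-fold (1.41 ± 0.18, adjusted p = 6.3e-05), and its partner Npc1 rose (0.48 ± 0.11, adjusted p = 0.00342). Nr1h3, which encodes LXR alpha, rose 1.25-fold (0.32 ± 0.15, adjusted p = 0.0256) and was named after its value was seen. The lipoprotein receptor Scarb1 fell 1.41-fold (-0.50 ± 0.08, adjusted p = 0.00235). With Apoe 2 members fell, and without set 2 this was 1. Over all probes 1866 fell, and without set 2 this was 1313.

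Of 21 measured genes of fatty acid oxidation, 1 rose, 3 fell and 17 did not pass, with a median of -0.08. The share called was 19%, against 31.4% of all genes, and no test compared the list with all genes. The carnitine carrier Slc25a20 rose 1.44-fold (0.53 ± 0.24, adjusted p = 0.00783). Hadh, a mitochondrial dehydrogenase of the pathway, fell 1.65-fold (-0.73 ± 0.05, adjusted p = 0.000417), and the peroxisomal enzyme Hsd17b4 fell 1.31-fold (-0.39 ± 0.03, adjusted p = 0.00522). Cpt1a, the entry step into mitochondria, was at -0.11 (adjusted p = 0.279), named after its value was seen.

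Fabp4, Lpl and Plin2 are also adipocyte genes. Of 10 adipocyte markers 7 were measured, and limma called 0 of them, with 0 at an unadjusted p under 0.05. Their means over the sets ran from -0.05 to 0.12. Single sets spread wider, as in Retn from -0.24 to 0.40. Of 12 macrophage markers 10 were measured, of which 8 rose and 1 fell, with a median of 0.69. The share called was 90%, and 0% for the adipocyte markers, against 31.4% of all genes. The adipocyte list leaves out Fabp4, Lpl and Plin2, which rose at the gene level, so 0% is not the share of all adipocyte genes. Both lists were chosen with earlier results known, and no test compared them with all genes. The scavenger receptor Msr1 (2.35 ± 0.01) and the Fc receptor Fcgr1 (2.13 ± 0.02) rose most, and the growth factor receptor Csf1r fell (-0.27 ± 0.08). A ratio gives no level, so whether the markers are present in these cells cannot be read from the values. The part of these markers in the results for the 10 genes was not tested.

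**Figure D3:**
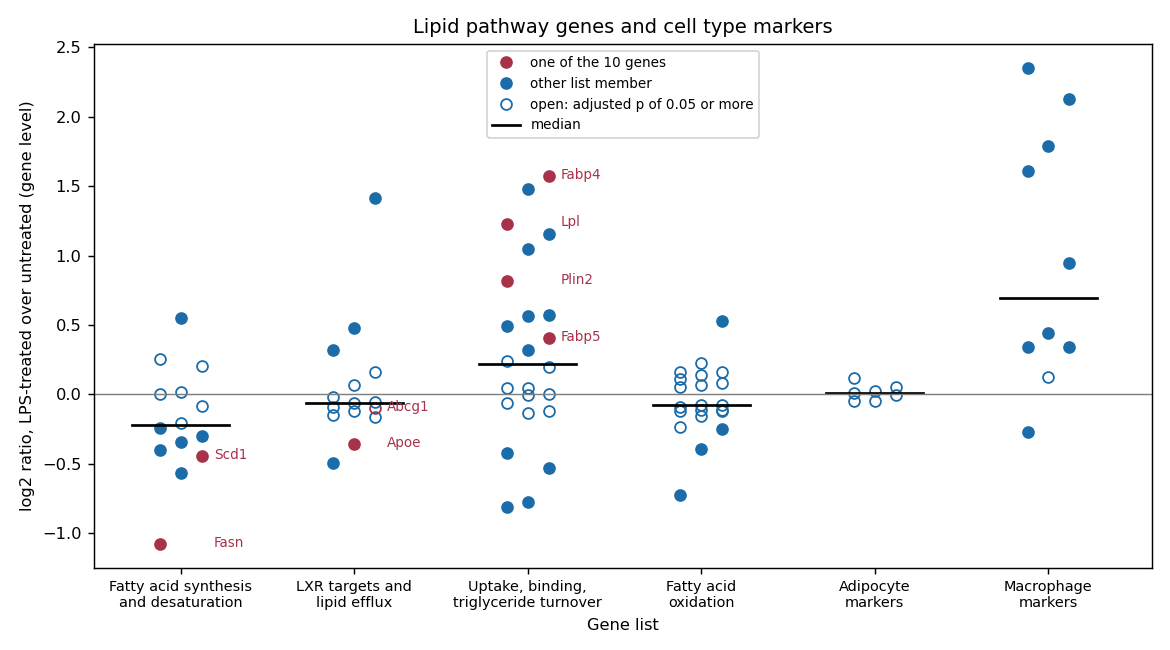
Gene-level log2 ratio of treated over untreated RNA (y axis) by gene list (x axis), one point per measured gene, filled where the adjusted p was under 0.05, with the 10 genes in red and the median as a bar. Fasn (-1.08) is lowest in the synthesis list, Fabp4 (1.57, the mean of disagreeing probes) is highest in the uptake list, and the adipocyte markers lie between -0.05 and 0.12.

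The genes nearest to each of the 8 tested genes were taken by Euclidean distance over the 6 arrays, on the log2 ratio scale. Nearest to Lpl were Scfd1 (distance 0.51), Ly96 (0.57) and Tfrc (0.64). Scfd1 stood at 0.67, 0.48 and 2.08 in sets 1, 2 and 3, Ly96 at 0.99, 1.03 and 2.32, and Tfrc at 0.98, 0.81 and 2.55. These genes were chosen for ratios like those of Lpl, so their high set 3 follows from the choice.

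Nearest to Fasn were Srsf3 (0.17), Pa2g4 (0.19) and Kpnb1 (0.22), which had means of -1.07, -1.11 and -1.06, close to that of Fasn by the choice. Plin2 lay nearest to Ggt7 (0.17), Acadsb (0.21) and Gpr65 (0.21). Fabp4, as the mean of its disagreeing probes, lay nearest to Ms4a4b (0.35), Mpeg1 (0.37) and Apod (0.52). The nearest of Fabp5 were Rnf186 (0.11), Pecam1 (0.11) and Minpp1 (0.12), and those of Scd1 were Abhd14b (0.30), Gys1 (0.32) and Chrnb1 (0.34). Apoe had Nfyb (0.17), Ush1c (0.20) and Siva1 (0.22), and Abcg1 had Alox15 (0.10), Top3b (0.11) and Tnfrsf19 (0.11). Distances are small wherever ratios are near 0, so they are not comparable between genes with large and small changes.

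**Figure D4:**
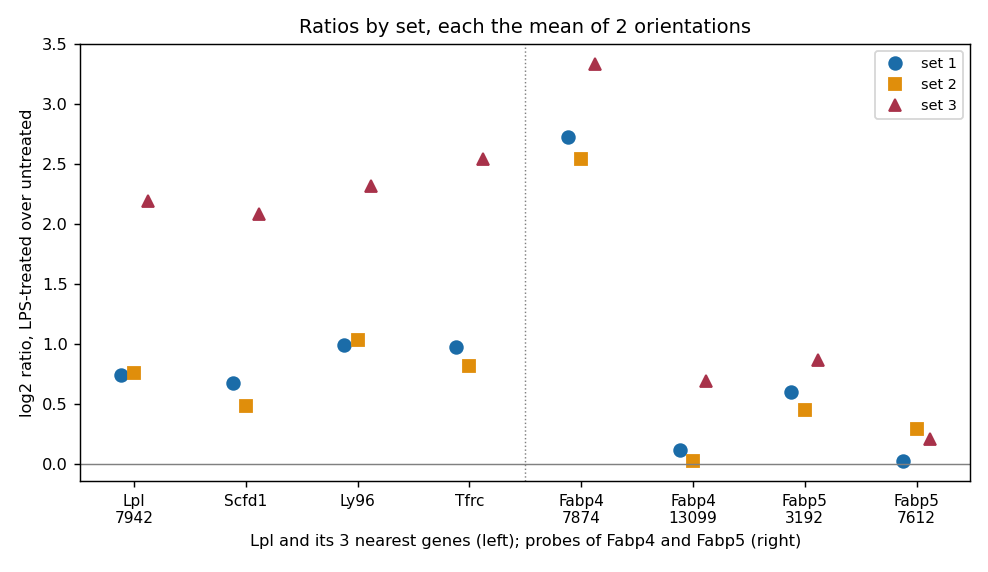
Log2 ratio of treated over untreated RNA (y axis) in sets 1, 2 and 3, each the mean of 2 orientations, for Lpl and its 3 nearest genes (left) and the tested probes of Fabp4 and Fabp5 (right). Set 3 stands above 2 in Lpl, Scfd1, Ly96 and Tfrc while sets 1 and 2 lie near 1 or lower, and the Fabp4 probes lie 2.59 apart on average.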

How the data were processed

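RNA of treated and untreated RAW 264.7 cells was compared on 6 arrays. The table deposited by the authors holds log2 ratios between the channels, judged from the values themselves. Background correction and normalization: not given in the sources used here. Without exact zeros, column medians ran from -0.03 to 0.01. The labels name the line 264.7, and in places 264.4. Values were turned to treated over untreated by the dye in the labels. Exact 0, which made up 9.56% to 12.9% of an array, was taken as missing. Probes not listed in the annotation (2491) or naming several symbols (52) count in the fit and are unnamed.

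The 2 orientations of a set number were averaged and the 3 values tested against 0 across all 13418 complete probes, and for genes as the mean of their probes, with limma 3.58.1 in R 4.3.3 (two-sided, Benjamini-Hochberg, threshold 0.05). Orientation was tested on the 6 arrays as a term and sets as a factor, and probes of one gene by their differences per set. The fit was checked on simulated data, whose settings and outcome are not given here, so nothing is read from that check. The members, lists and tests were chosen with earlier results of these data known. The rule for named genes takes the 10 genes, the 2 largest called rises and falls of each list, the 3 nearest genes and Il6, Il1b and Ptgs2; genes outside it are marked in the text. Figures were made with Python 3.11.15.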

Additional observations from a re-analysis of the deposited data

How the results depend on the processing

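Alternatives kept the direction of all tested probes and genes named among the 10. Apart from leaving out a set, alternatives were compared with the main fit for these ratios, their orientation differences, set F-tests and probe pairs. Of these comparisons 189 kept their side of the threshold and 15 lost a call, all for Scd1, Lpl, Fabp5 or Apoe. The 189 include values not called in the main fit, which had no call to lose. Genes with 1 probe count at both the probe and the gene level. With exact zeros kept as ratios, 16281 probes entered the fit, 1074 of them 0 throughout; 2 member probes were called higher and 1 lower, all probes gave 1272 higher and 887 lower, synthesis and oxidation lists had 0 higher, the LXR list 1 lower and the uptake list 2 lower. Only arrays with treated RNA in Cy5 called 1 member probe lower, 3 synthesis genes, 2 uptake genes and 1 oxidation gene lower, and 1 LXR gene each way. Over all probes those arrays called 1600 higher and 1307 lower, against 2263 and 1866 in the main fit. Only arrays with treated RNA in Cy3 gave 3 oxidation genes higher, with 2353 of all probes higher and 1802 lower. The causes were not tested. With 6 separate arrays and an orientation term, and with the set number as a replicate block, synthesis and oxidation each had 2 genes higher. Over all probes the separate arrays gave 2604 higher and 2291 lower, and the block 2447 higher and 2143 lower. The block called 4 member probes higher and 3 lower and changed no call of theirs. Deviations of same-numbered arrays correlated at 0.19, 0.05 and 0.54 in sets 1, 2 and 3, and 2 of 6 arrays correlated best with their own number, so the numbers are not shown to pair the arrays. Leaving out a set gave 0 to 2 synthesis genes higher and 3 to 6 lower, 2 to 4 uptake genes lower and 1 to 2 LXR genes lower. Over all probes, leaving out a set gave 1710 to 2117 higher and 1313 to 1779 lower. Probe signal over background is not given, which limits reading of the probes near 0.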
